A study of Mus musculus with 18 samples.

Results

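The 38 genes described here encode the enzymes of cholesterol and fatty acid synthesis and the proteins that control them through the sterol regulatory element-binding proteins (SREBPs). They were taken as a fixed list of symbols, and all 38 were among the 11243 protein-coding genes of the count table. The list holds 7 regulators, 20 genes of the sterol arm and 11 genes of the fatty acid arm. Their expression was measured in RAW264.7 cells, a mouse macrophage-like cell line, by RNA sequencing of total mRNA and of mRNA recovered from pooled heavy polysome fractions of the same lysates. Cells were left as vehicle controls (DMSO), exposed to 500 ng/mL lipopolysaccharide (LPS), a bacterial cell wall component that activates macrophages, for 6 h, or given 100 nM torin1 for 15 min before the same LPS exposure. Torin1 is an inhibitor of the mTOR kinase. Each of the 6 groups (3 treatments in 2 kinds of mRNA) had 3 libraries, 1 from each of 3 experiments, and gave 27800983 to 47725557 counts. Torin1 without LPS was not analysed here, so a difference between LPS+torin1 and LPS cells describes torin1 in stimulated cells only. RAW264.7 is a single transformed line, all groups share it, and no group carries a genetic change.

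SREBPs are made as precursors in the membrane of the endoplasmic reticulum (ER). When sterols are scarce, the escort protein Scap carries them to the Golgi, where a pair of proteases (Mbtps1 and Mbtps2) releases the part that enters the nucleus, and when sterols are plentiful Insig proteins hold the Scap complex in the ER. The released factors bind sterol regulatory elements near the genes of both arms, with SREBP2 (from Srebf2) known mainly for the sterol genes and SREBP1 (from Srebf1) mainly for the fatty acid genes. mTOR complex 1 is known in other cells to promote SREBP activity, and macrophages are known to remodel their sterol and fatty acid metabolism after Toll-like receptor stimulation.

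Promoter sequence was matched by symbol in RefSeq (GRCm38.p6) for 31 of the 38 genes, with 40 promoters in all. The genes without an entry were Fdft1, Fdps, Sqle, Stard4, Fads1, Scd1 and Scd2. The 250 bases before each RefSeq start were searched on both strands for the sterol regulatory element written as TCACNCCAC, the E-box CACGTG, the CCAAT box and the GC box GGGCGG, and matches of different motifs may overlap. The sterol regulatory element was found in 1 of the 31 genes, Hmgcs1, against 1.22% of 27025 mouse genes. The CCAAT box was found in 24 of the 40 promoters (23 genes) and the GC box in 28 of the 40 (24 genes), against 33.8% and 32.7% of all 32851 promoters, and the E-box in 6 genes, against 6.86% of genes. The comparison set holds every RefSeq promoter, also those of genes silent in these cells, and the strict 9-letter match leaves out looser forms of the element. Shown here are Hmgcs1 (chr13:119690101-119690350, plus strand), the gene with the element, Ggps1 (chr13:14063489-14063738, minus strand), which rose with LPS and fell with torin1, Mvd (chr8:122443423-122443672, minus strand), the sterol gene that moved opposite to its arm with torin1, and Fasn (chr11:120824548-120824797, minus strand), the fatty acid synthase gene. Capitals mark the sterol regulatory element and the CCAAT box on either strand (CCAAT or ATTGG).
Hmgcs1: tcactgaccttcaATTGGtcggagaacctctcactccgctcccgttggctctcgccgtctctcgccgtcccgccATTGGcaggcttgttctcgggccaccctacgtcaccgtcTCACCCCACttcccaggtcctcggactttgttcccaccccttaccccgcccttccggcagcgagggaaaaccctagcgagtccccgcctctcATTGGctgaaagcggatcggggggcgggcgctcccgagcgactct
Ggps1: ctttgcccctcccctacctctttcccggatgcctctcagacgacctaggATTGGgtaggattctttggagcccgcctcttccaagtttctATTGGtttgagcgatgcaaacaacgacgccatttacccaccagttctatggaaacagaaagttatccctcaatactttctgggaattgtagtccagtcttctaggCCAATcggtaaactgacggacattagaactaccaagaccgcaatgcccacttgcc
Mvd: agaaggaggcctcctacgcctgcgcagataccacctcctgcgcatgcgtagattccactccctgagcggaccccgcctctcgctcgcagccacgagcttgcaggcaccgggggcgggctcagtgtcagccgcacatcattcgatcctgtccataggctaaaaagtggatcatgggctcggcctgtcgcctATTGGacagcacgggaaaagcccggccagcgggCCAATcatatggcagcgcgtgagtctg
Fasn: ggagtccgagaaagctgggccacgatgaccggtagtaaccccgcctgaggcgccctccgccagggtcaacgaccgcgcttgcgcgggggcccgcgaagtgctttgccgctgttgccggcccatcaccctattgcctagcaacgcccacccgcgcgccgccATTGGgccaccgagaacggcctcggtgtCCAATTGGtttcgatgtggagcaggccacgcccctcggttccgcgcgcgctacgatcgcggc
The Hmgcs1 element starts 137 bases before the start site, and CCAAT boxes lie in all 4 windows.

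The macrophage label was checked against marker genes. All 8 macrophage markers (Ptprc, Spi1, Csf1r, Itgam, Adgre1, Cd68, Cd14 and Lyz2) were in the table, with summed levels of 11490 to 14876 counts-per-million (CPM, scaled by TMM within each kind of mRNA) in the total mRNA libraries. Of the fibroblast, epithelial, lymphocyte and neutrophil lists only Pdgfrb (at most 1.72 CPM) and S100a8 (at most 7.68 CPM) were in the table. The LPS response genes Tnf and Ptgs2 summed to 284 to 364 CPM in control total mRNA, to 7941 to 9227 CPM with LPS and to 5044 to 5800 CPM with LPS+torin1, without overlap between the treatments. Nos2, also on the LPS response list, was not in the table.

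The 38 genes together took 0.523 to 0.681% of the counts in control total mRNA, 0.380 to 0.413% with LPS and 0.271 to 0.340% with LPS+torin1, and the libraries of the 3 treatments did not overlap. In polysome-associated mRNA the shares were 0.557 to 0.759%, 0.388 to 0.447% and 0.288 to 0.360%, also without overlap. These are shares of bulk libraries, in which fewer cells of a type and less RNA per cell cannot be told apart. For the tests of treatment, p-values without a block measure the spread between the 3 experiments, or between the others where an experiment is left out. Those with the experiment as a block measure the spread that remains once differences between experiments are removed. Scd2, a stearoyl-CoA desaturase that makes monounsaturated fatty acids, was the most abundant member per kilobase of exon in control cells (204 ± 55.9 CPM per kb in total mRNA, SD, n = 3). Scd2 alone fell from 1113 ± 306 CPM in control to 417 ± 54.3 with LPS and 224 ± 66.0 with LPS+torin1 (SD, n = 3). The other 10 fatty acid genes summed to 2197 ± 116, 1912 ± 197 and 1385 ± 96.9 CPM, and the 20 sterol genes to 1198 ± 217, 1319 ± 307 and 877 ± 155 CPM (total mRNA, SD, n = 3). Control and LPS libraries overlapped for the sterol arm and for the fatty acid arm without Scd2, and LPS+torin1 libraries lay below all LPS libraries in both.

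**Figure D1:**
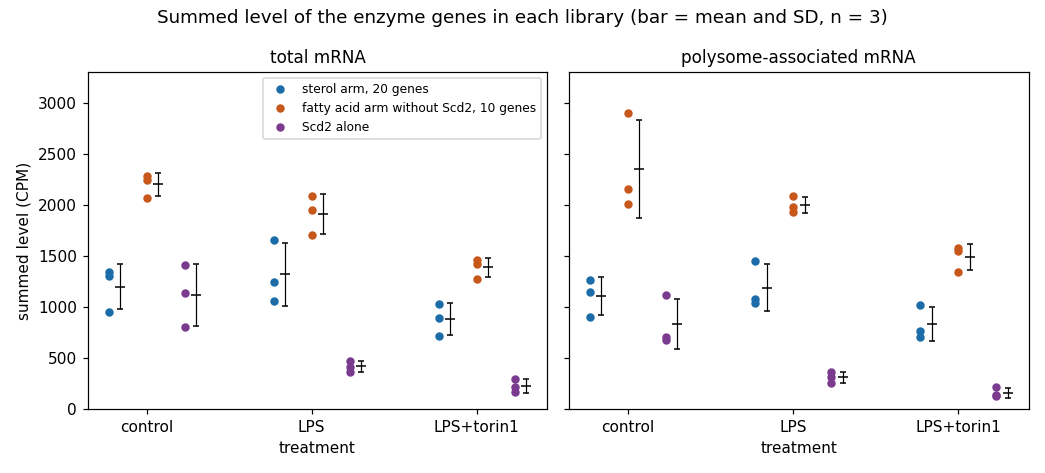
Summed level (CPM, vertical axis) of the sterol arm, of the fatty acid arm without Scd2 and of Scd2 alone in each library by treatment, for total mRNA (left) and polysome-associated mRNA (right), with black bars for the mean and SD of 3 libraries. Scd2 drops from 1113 to 417 CPM on average between control and LPS in total mRNA while the 20 sterol genes stay near 1198 to 1319 CPM, and all sums are lowest with LPS+torin1.

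Of the 38 genes, 5 were higher and 13 lower in total mRNA with LPS than in control at an edgeR adjusted p under 0.25, the threshold of the study, beside 32.2% of all 11243 genes higher and 34.3% lower. In polysome-associated mRNA 4 were higher and 11 lower, beside 26.4% and 28.7% of all genes. These counts are 13.2% and 34.2% of the 38 genes in total mRNA. Without experiment 1 the polysome count of 15 fell to 8, and without experiment 2 it was 24. Counts over all genes with an experiment left out are not given here or below for total or polysome-associated mRNA. In the sterol arm 3 of 20 genes rose and 4 fell in total mRNA, and 3 rose and 3 fell in polysome-associated mRNA. With the experiment as a block 10 of the 38 genes were called higher and 15 lower in total mRNA. Over all 11243 genes the block called 3971 higher and 4252 lower there. In polysome-associated mRNA it called 10 of the 38 higher and 14 lower, beside 3353 and 3709 of all genes. In the sterol arm the block called 7 higher and 6 lower in total mRNA and 8 higher and 6 lower in polysome-associated mRNA. In the fatty acid arm 1 of 11 rose and 7 fell in total mRNA, and none rose and 7 fell in polysome-associated mRNA. The fatty acid genes that fell were the desaturase genes Scd1, Scd2, Fads1 and Fads2, the elongase genes Elovl5 and Elovl6, and Acss2, which makes acetyl-CoA from acetate, while Acaca and Fasn, which build palmitate, had log2 changes of 0.03 and -0.05 in total mRNA and were not called.

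Most genes of both arms were lower with torin1. Between LPS+torin1 and LPS cells, 4 of the 38 genes were higher and 26 lower in total mRNA, beside 27.3% of all genes higher and 26.4% lower (edgeR adjusted p under 0.25). In polysome-associated mRNA 2 were higher and 20 lower, beside 20.3% and 18.2% of all genes. Without experiment 3 the polysome count of 22 fell to 8, while the total mRNA count of 30 was 23. The sterol arm had 15 of 20 genes lower and 1 higher in total mRNA and 13 lower in polysome-associated mRNA, and the fatty acid arm had 10 of 11 lower in total mRNA and 7 lower in polysome-associated mRNA. Against control cells, LPS+torin1 cells had 4 genes higher and 26 lower in total mRNA, beside 33.1% and 33.6% of all genes, and 5 higher and 28 lower in polysome-associated mRNA, beside 28.5% and 29.7%. Without experiment 3 that polysome count of 33 fell to 19. The comparisons share libraries (the LPS and the control ones), so their counts are given side by side and are not independent of each other.

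Within each experiment the arms could be set side by side. The median log2 change with LPS in total mRNA was 0.07 ± 0.20 over the sterol genes and -0.43 ± 0.24 over the fatty acid genes (SD, n = 3 experiments), against -0.02 over all genes. The sterol median exceeded the fatty acid median in each experiment, by 0.89, 0.34 and 0.28. In polysome-associated mRNA the medians were 0.13 ± 0.20 and -0.40 ± 0.21, with differences of 0.87, 0.18 and 0.53. With torin1 against LPS the medians of the arms lay close together. Between LPS+torin1 and LPS cells the sterol and fatty acid medians were -0.62 ± 0.10 and -0.67 ± 0.13 in total mRNA, and their difference was -0.02, 0.04 and 0.15 in the 3 experiments. In polysome-associated mRNA they were -0.59 ± 0.04 and -0.50 ± 0.11. In LPS+torin1 against control cells they were -0.61 ± 0.10 for the sterol arm and -0.87 ± 0.04 for the fatty acid arm in total mRNA, and the experiments of the 2 arms did not overlap. These medians are descriptions of the chosen genes and carry no test.

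**Figure D2:**
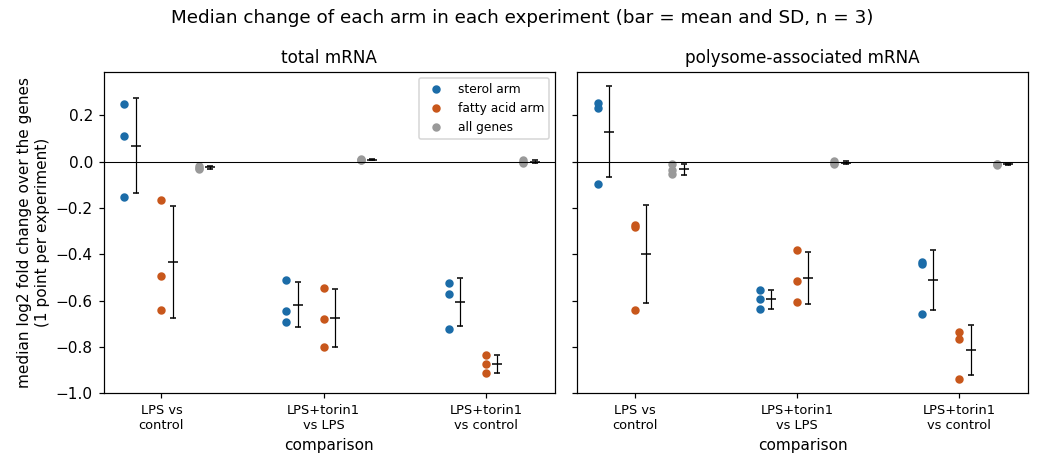
Median log2 fold change (vertical axis) over the 20 sterol genes, the 11 fatty acid genes and all genes, 1 point per experiment, in the 3 comparisons for total mRNA (left) and polysome-associated mRNA (right), with black bars for the mean and SD of 3 experiments. With LPS the sterol points lie above the fatty acid points in every experiment, and with torin1 against LPS both arms lie between -0.38 and -0.80, far from the all-gene median near 0.

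Among the regulators, Srebf1 and Srebf2 varied between experiments. Srebf1 (chr11:60199089-60222581, minus strand) was at 123.7, 87.4 and 102 CPM in control total mRNA, at 50.4, 106.03 and 73.5 CPM with LPS and at 101.2, 100.7 and 97.2 CPM with LPS+torin1. Srebf2 (chr15:82147181-82205379, plus strand) was at 153, 124.9 and 149 CPM, then 116.7, 209 and 179 CPM, then 146, 128 and 138 CPM. LPS and control libraries overlapped for both genes, and LPS libraries spread most. Srebf1 was called lower with LPS in total mRNA (log2 -0.45 ± 0.23 SE, edgeR adjusted p = 0.133), lower in 2 of 3 experiments. It was also called lower in polysome-associated mRNA (-0.80 ± 0.31, edgeR adjusted p = 0.0688), and without experiment 1 neither call was kept (edgeR adjusted p = 0.800 and 0.449). Srebf2 was not called with LPS in total mRNA (0.24 ± 0.18, edgeR adjusted p = 0.314), and without experiment 1 it was called higher at 0.51 (edgeR adjusted p = 0.0274). With torin1 the total mRNA of Srebf1 was called higher than in LPS cells (0.38 ± 0.23, edgeR adjusted p = 0.236), a call lost without experiment 1 or 3 (edgeR adjusted p = 0.630 and 0.524). Srebf2 was not called there (-0.29 ± 0.18, edgeR adjusted p = 0.268), but was without experiment 1 (-0.54, edgeR adjusted p = 0.0403).

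The balance of the SREBP genes within a library separated the LPS libraries from the rest. In total mRNA the log2 ratio of Srebf2 to Srebf1 CPM was 0.31, 0.52 and 0.54 in control, 1.21, 0.98 and 1.28 with LPS and 0.53, 0.35 and 0.51 with LPS+torin1. In polysome-associated mRNA it was 0.63, 0.84 and 0.76, then 1.48, 1.53 and 1.60, then 0.97, 0.85 and 0.99. In both kinds of mRNA every LPS library had a higher Srebf2 to Srebf1 ratio than every control and every LPS+torin1 library. The ratio is among 3 ratios of related genes that were computed, was not tested, and says nothing of which of the genes moved.

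The Insig genes, whose products retain the Scap complex in the ER, moved apart. Insig1 (chr5:28071363-28078662, plus strand), itself a known SREBP target, was at 115, 108 and 59.9 CPM in control total mRNA, at 186, 146 and 99.2 CPM with LPS and at 107.4, 91.2 and 59.6 CPM with LPS+torin1. The groups overlapped because experiment 3 was low throughout, yet within each experiment Insig1 was higher with LPS than in control and lower with LPS+torin1 than with LPS. It was called higher with LPS (log2 0.61 ± 0.30, edgeR adjusted p = 0.120, and 0.000226 with the experiment as a block) and lower with torin1 than with LPS (-0.74 ± 0.30, edgeR adjusted p = 0.0875, and 0.000278 with the block). In LPS+torin1 against control cells Insig1 was not called (-0.13 ± 0.30, edgeR adjusted p = 0.747) but was with the block (edgeR adjusted p = 0.243). In polysome-associated mRNA Insig1 was higher with LPS at 0.69 ± 0.33 (edgeR adjusted p = 0.139), a call lost without experiment 1 (edgeR adjusted p = 0.351), and not called with torin1 (-0.60 ± 0.33, edgeR adjusted p = 0.260). With the experiment as a block that torin1 fall was called (edgeR adjusted p = 0.00540), and it was -0.57, -0.59 and -0.67 in the 3 experiments. Insig2 (chr1:121304353-121332589, minus strand) was 17.01, 17.6 and 20.1 CPM in control total mRNA, 16.7, 18.4 and 17.5 CPM with LPS and 19.9, 20.1 and 23.8 CPM with LPS+torin1. Insig2 was not called with LPS (-0.05 ± 0.12, edgeR adjusted p = 0.738). Its LPS+torin1 libraries lay above all LPS libraries (0.28 ± 0.12, edgeR adjusted p = 0.108), and the call was lost without experiment 3 (edgeR adjusted p = 0.459).

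The log2 ratio of Insig1 to Insig2 was 2.32 ± 0.65 in control, 2.99 ± 0.48 with LPS and 1.98 ± 0.58 with LPS+torin1 (total mRNA, SD, n = 3), with the groups overlapping. Mbtps1 encodes the protease that makes the first cut of SREBPs. In total mRNA Mbtps1 was at 173, 149 and 179 CPM in control, at 140, 135.8 and 155 CPM with LPS and at 196, 184 and 205 CPM with LPS+torin1. It was called lower with LPS than in control in total mRNA (log2 -0.22), a call lost when 1 experiment was left out. In LPS+torin1 against control cells it was called higher (0.22). LPS+torin1 and LPS libraries did not overlap, and their difference was 0.44 ± 0.10 (edgeR adjusted p = 0.0109) in total mRNA and 0.46 ± 0.15 (edgeR adjusted p = 0.0645) in polysome-associated mRNA. Against LPS, the total mRNA call was kept without any 1 experiment, and the polysome call was lost without experiment 1 or 3 (edgeR adjusted p = 0.251 and 0.363). Mbtps2, the protease of the second cut, and Scap, the escort, were not called with LPS or with torin1 against LPS in either kind of mRNA, except that with the block Mbtps2 was called higher with LPS (edgeR adjusted p = 0.194 in total and 0.188 in polysome-associated mRNA). By annotation (GENCODE M21) 28.4% of the exon length of Mbtps2 is shared with Yy2 and 13.2% of that of Scap lies opposite 5830462I19Rik, and whether counting used strand is not given in the sources used here.

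**Figure D3:**
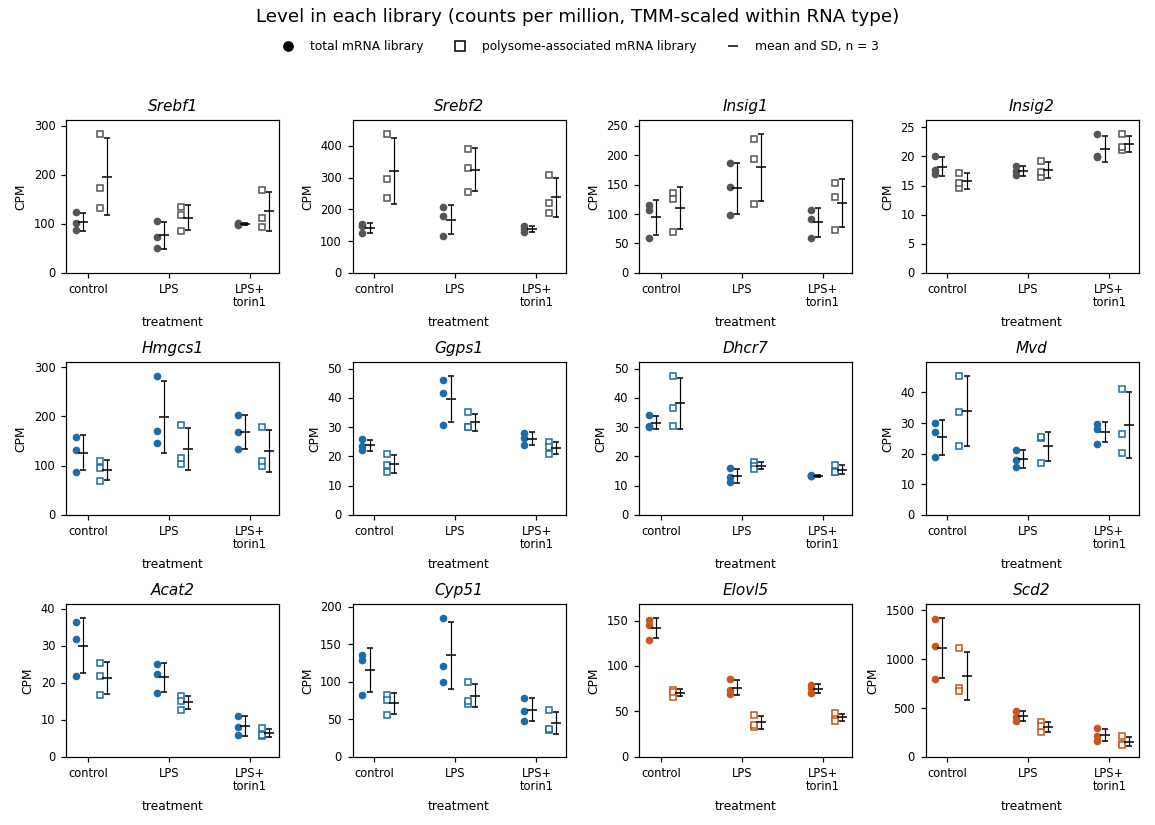
CPM (vertical axis, from 0) of 12 genes in each of the 18 libraries by treatment, filled circles for total mRNA, open squares for polysome-associated mRNA and black bars for the mean and SD of 3 libraries. Dhcr7 and Elovl5 are lower than control with LPS and near that level with LPS+torin1. Acat2 and Scd2 are lower with LPS than in control and lowest with LPS+torin1. In total mRNA Ggps1 is higher with LPS than in either other treatment.

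In the sterol arm, LPS raised 3 genes (Ggps1, Hsd17b7 and Hmgcs1) and lowered 4 (Dhcr7, Acat2, Mvd and Mvk). Ggps1 (chr13:14050659-14063488, minus strand), which makes the geranylgeranyl diphosphate used for protein prenylation, was at 23.6, 25.9 and 22.2 CPM in control total mRNA, at 46.2, 41.6 and 30.8 CPM with LPS and at 26.3, 28.1 and 23.7 CPM with LPS+torin1. All LPS libraries were above all others. Ggps1 rose 1.65-fold with LPS in total mRNA (log2 0.73 ± 0.15, edgeR adjusted p = 0.00257) and 1.81-fold in polysome-associated mRNA (0.86 ± 0.17, edgeR adjusted p = 0.00307). It fell by 0.60 on the log2 scale with torin1 (SE 0.15, edgeR adjusted p = 0.0131), and 5.44% of its exon length lies opposite Arid4b.

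Hmgcs1 (chr13:119690379-119708260, plus strand), the synthase that makes HMG-CoA at the entry to the mevalonate pathway, was at 131.5, 159 and 87.9 CPM in control total mRNA, at 281, 170 and 145 CPM with LPS and at 203, 169 and 134 CPM with LPS+torin1. The groups overlapped. The rise with LPS was called in total mRNA (0.66 ± 0.27, edgeR adjusted p = 0.0743) and in polysome-associated mRNA (0.55 ± 0.28, edgeR adjusted p = 0.163). In total mRNA the rise was 1.098, 0.098 and 0.72 in the 3 experiments, and the call was lost without experiment 1 (0.37, edgeR adjusted p = 0.328). The polysome call was lost without experiment 1 or 3 (edgeR adjusted p = 0.527 and 0.404). With torin1 against LPS the total mRNA of Hmgcs1 was not called at -0.24 (95% interval -0.77 to 0.30), unlike that of most of its arm. Hsd17b7, a sterol ketoreductase of the late pathway, rose with LPS in both kinds of mRNA (0.50 ± 0.17, edgeR adjusted p = 0.0355 in total mRNA, and 0.62 ± 0.17, edgeR adjusted p = 0.0191 in polysome-associated mRNA). Its LPS libraries did not overlap the control ones.

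Dhcr7 (chr7:143823145-143848410, plus strand), the reductase of the last step to cholesterol, was the sterol gene that fell most with LPS. It was at 30.5, 34.2 and 30.1 CPM in control total mRNA, at 11.2, 16.1 and 12.8 CPM with LPS and at 13.2, 13.2 and 13.6 CPM with LPS+torin1. Control libraries were all above the rest, and the other 2 groups overlapped. Its fall was 2.36-fold in total mRNA (log2 -1.24 ± 0.14, edgeR adjusted p = 5.67e-05) and 2.26-fold in polysome-associated mRNA (-1.18 ± 0.18, edgeR adjusted p = 0.000776). With torin1 against LPS the change was near 0 (95% interval -0.28 to 0.27, edgeR adjusted p = 0.987). Acat2, Mvd and Mvk, which make acetoacetyl-CoA and process mevalonate, also fell with LPS in total mRNA, by 0.49, 0.48 and 0.43 on the log2 scale. Those 3 calls were lost when 1 experiment was left out, with edgeR adjusted p = 0.436 for Acat2 without experiment 2 and edgeR adjusted p = 0.306 for Mvd and 0.646 for Mvk without experiment 1. In polysome-associated mRNA the fall of Acat2 (-0.53 ± 0.20, edgeR adjusted p = 0.0678) was kept without any 1 experiment. Of the 18 total mRNA calls with LPS, 8 held without any 1 experiment: Insig1, Ggps1, Hsd17b7, Dhcr7, Elovl5, Elovl6, Fads1 and Scd2. With the experiment as a block 6 more sterol genes were called with LPS in total mRNA. Idi1 (edgeR adjusted p = 0.110), Fdft1 (0.103), Cyp51 (0.115) and Sc5d (0.0652) were called higher and Sqle (0.185) and Stard4 (0.0436) lower.

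With torin1 against LPS in total mRNA, the sterol genes Hmgcs1, Mvk, Fdft1 and Dhcr7 were not called and Mvd was called higher. The sterol genes that fell ranged from the first to late steps of the pathway, without covering every step. Acat2 (chr17:12942890-12960747, minus strand), a thiolase at its start, was at 24.9, 22.3 and 17.1 CPM with LPS and at 11.2, 8.07 and 5.89 CPM with LPS+torin1 in total mRNA. Cyp51 (chr5:4081145-4104746, minus strand), the lanosterol demethylase, was at 185, 121 and 99.6 CPM with LPS and at 78.5, 61.9 and 48.2 CPM with LPS+torin1. Idi1 (chr13:8885501-8892451, plus strand), the isomerase that supplies the isoprenoid building blocks, was at 30.995, 21.9 and 19.5 CPM with LPS and at 13.5, 12.6 and 8.15 CPM with LPS+torin1. In each case all LPS+torin1 libraries lay below all LPS libraries. The falls were 2.56-fold for Acat2 (-1.35 ± 0.26, edgeR adjusted p = 0.00383), 2.15-fold for Cyp51 (-1.11 ± 0.27, edgeR adjusted p = 0.0119) and 2.11-fold for Idi1 (-1.08 ± 0.24, edgeR adjusted p = 0.00761). In polysome-associated mRNA they were -1.19 ± 0.21, -0.84 ± 0.24 and -0.86 ± 0.22 (edgeR adjusted p = 0.00548, 0.0435 and 0.0268). The polysome call of Cyp51 was lost without experiment 3 (edgeR adjusted p = 0.276).

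The remaining sterol genes called lower with torin1 in total mRNA were Pmvk, Fdps, Ggps1, Sqle, Lss, Tm7sf2, Msmo1, Nsdhl, Hsd17b7, Ebp, Sc5d and Stard4, with log2 changes between -0.37 (Stard4, a cholesterol carrier) and -0.92 (Hsd17b7). Of all 20 sterol genes, 13 (65.0%) had every LPS+torin1 library below every LPS library, beside 19.8% of all genes. The calls of Tm7sf2 and Stard4 were lost without experiment 3 (edgeR adjusted p = 0.423 and 0.382), and that of Stard4 also without experiment 2 (edgeR adjusted p = 0.288). Mvd, the decarboxylase that makes isopentenyl diphosphate, went the other way. It was at 30.1, 27.2 and 19.1 CPM in control total mRNA, at 17.9, 21.2 and 15.5 CPM with LPS and at 29.7, 28.1 and 23.3 CPM with LPS+torin1. Its rise with torin1 was 1.48-fold (0.57 ± 0.18, edgeR adjusted p = 0.0405), without overlap of the libraries. In polysome-associated mRNA the rise was not called (0.38 ± 0.31, edgeR adjusted p = 0.443) but was with the block (edgeR adjusted p = 0.214). Fdft1, the squalene synthase, was not called in any comparison without the block, with a change with torin1 between -0.67 and 0.27 at 95% in total mRNA. By annotation 18.3% of its exon length lies opposite Ctsb, and 26.7% of the exon length of Fdps is shared with Gm43738.

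**Figure D4:**
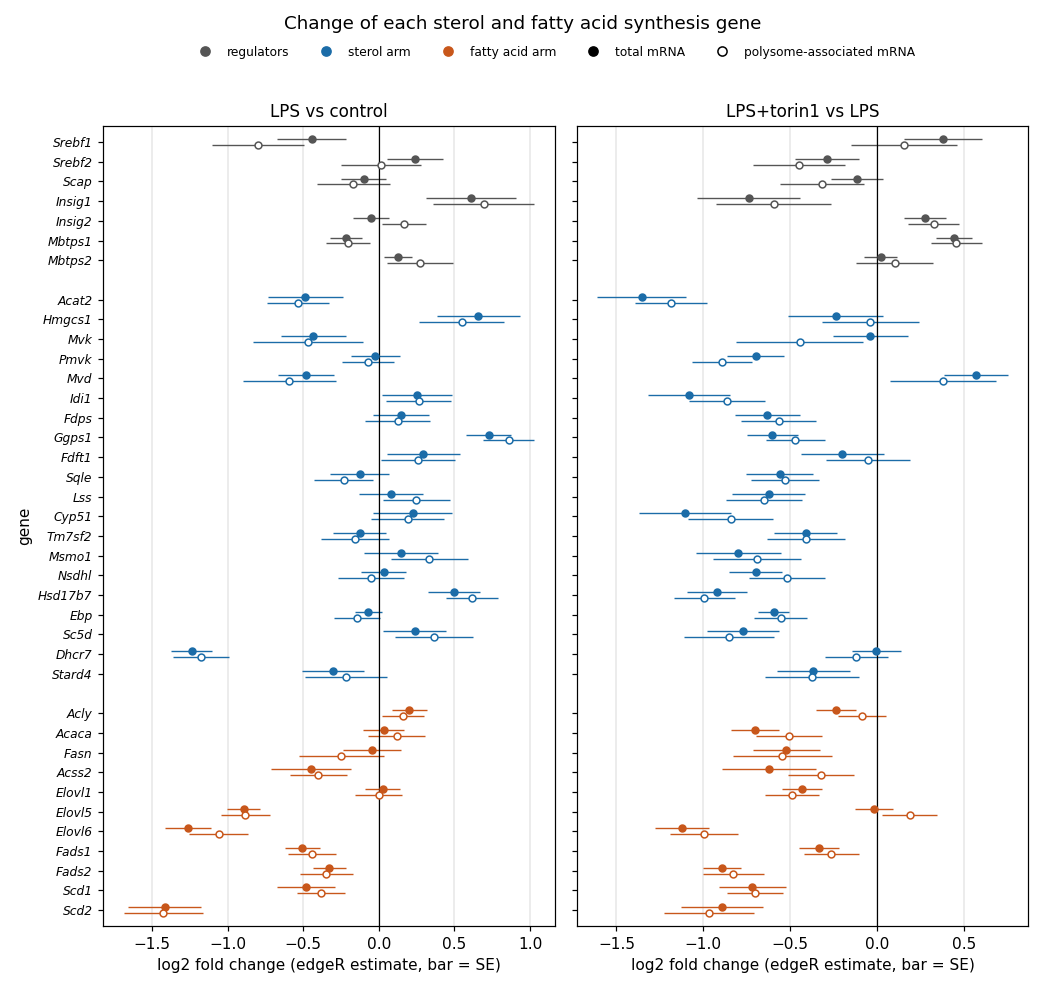
Log2 fold change with its SE (horizontal axis) of each of the 38 genes for LPS against control (left) and LPS+torin1 against LPS (right), filled circles for total mRNA and open circles for polysome-associated mRNA, coloured by group. With LPS the sterol genes scatter on both sides of 0 while 7 of 11 fatty acid genes lie below it at the threshold, and with torin1 nearly all enzymes of both arms lie left of 0 in total mRNA, apart from Mvd, with Hmgcs1, Mvk, Fdft1, Dhcr7 and Elovl5 not called in total mRNA.

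In the fatty acid arm, the desaturase genes Scd1, Scd2, Fads1 and Fads2 and the elongase genes Elovl5 and Elovl6 fell with LPS, and the elongase gene Elovl1 was not called (0.03 ± 0.12, edgeR adjusted p = 0.873 in total mRNA). Scd2 (chr19:44293674-44306864, plus strand) was at 1409, 1131 and 798 CPM in control total mRNA, at 473, 412 and 365 CPM with LPS and at 296, 212 and 166 CPM with LPS+torin1. Elovl6 (chr3:129532355-129638495, plus strand), the elongase from palmitate to stearate, was at 86.5, 77.1 and 63.8 CPM, then 31.2, 33.9 and 29.8 CPM, then 16.2, 15.96 and 11.4 CPM. Elovl5 (chr9:77917364-77984519, plus strand), an elongase of polyunsaturated chains, was at 150, 145 and 129.02 CPM, then 73.2, 85.7 and 69.5 CPM, then 70.1, 79.4 and 75.9 CPM. The 3 treatments did not overlap for Scd2 and Elovl6, whereas for Elovl5 LPS and LPS+torin1 libraries overlapped below the control ones. With LPS, Scd2 fell 2.67-fold in total mRNA (-1.42 ± 0.24, edgeR adjusted p = 0.000833), Elovl6 2.40-fold (-1.26 ± 0.15, edgeR adjusted p = 9.91e-05) and Elovl5 1.86-fold (-0.89 ± 0.11, edgeR adjusted p = 0.00011). In polysome-associated mRNA the log2 changes were -1.42 ± 0.26, -1.06 ± 0.20 and -0.88 ± 0.16 (edgeR adjusted p = 0.00211, 0.00210 and 0.00200).

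Fads2 (chr19:10062765-10101746, minus strand), a desaturase of the polyunsaturated series, was at 214, 199 and 190 CPM in control total mRNA, at 139, 160 and 182 CPM with LPS and at 85.8, 85.1 and 87.8 CPM with LPS+torin1. The 3 treatments did not overlap. Its fall with LPS was modest (-0.33 ± 0.11, edgeR adjusted p = 0.0322) and lost without experiment 1 (-0.18, edgeR adjusted p = 0.273), while its fall with torin1 against LPS was 1.86-fold (-0.89 ± 0.11, edgeR adjusted p = 0.000475). Fads1, its partner desaturase, fell by 0.51 with LPS (SE 0.11, edgeR adjusted p = 0.00455) and by 0.33 with torin1 (SE 0.11, edgeR adjusted p = 0.0515). Scd1 fell by 0.48 with LPS (SE 0.19, edgeR adjusted p = 0.0618), lost without experiment 1 (edgeR adjusted p = 0.334), and by 0.72 with torin1 (SE 0.19, edgeR adjusted p = 0.0192). The log2 ratio of Scd2 to Scd1 in total mRNA went from 2.51 ± 0.15 in control to 1.58 ± 0.20 with LPS and 1.38 ± 0.39 with LPS+torin1 (SD, n = 3), and control libraries lay above all others. Scd1 and Scd2 are related in sequence, and reads shared by them could be split between their counts.

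Of the genes that make palmitate and its precursors, Acaca and Fasn were called with torin1 and not with LPS, and Acss2 and Acly with both. With torin1 against LPS in total mRNA, Acaca (acetyl-CoA carboxylase) fell by 0.70 (SE 0.14, edgeR adjusted p = 0.00463), Fasn by 0.52 (SE 0.19, edgeR adjusted p = 0.0635) and Acss2 by 0.62 (SE 0.27, edgeR adjusted p = 0.109). The Fasn and Acss2 calls were lost without experiment 3 (edgeR adjusted p = 0.400 and 0.397), that of Fasn also without experiment 2 (0.262) and that of Acss2 also without experiment 1 (0.261). The Fasn change was 0.13 in experiment 1. With LPS Acss2 fell by 0.45 (SE 0.26, edgeR adjusted p = 0.192), a call lost without experiment 2 or 3 (edgeR adjusted p = 0.445 and 0.377). Acly, which makes cytosolic acetyl-CoA from citrate, was called higher with LPS (0.20 ± 0.12, edgeR adjusted p = 0.180) and lower with torin1 against LPS (-0.24 ± 0.12, edgeR adjusted p = 0.150). Both Acly calls were in total mRNA only and were lost without experiment 1 (edgeR adjusted p = 0.354 and 0.336). Scd2 and Elovl6 fell with torin1 by 0.89 (SE 0.24, edgeR adjusted p = 0.0186) and 1.12 (SE 0.16, edgeR adjusted p = 0.000826) in total mRNA. Elovl5 was the fatty acid gene not called with torin1, with a 95% interval of -0.24 to 0.20.

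In LPS+torin1 against control total mRNA, Elovl6 was 5.22-fold lower (-2.38 ± 0.16, edgeR adjusted p = 2.04e-06), Scd2 4.96-fold lower (-2.31 ± 0.25, edgeR adjusted p = 3.92e-05) and Acat2 3.58-fold lower (-1.84 ± 0.26, edgeR adjusted p = 0.000222). In the fatty acid arm 10 of 11 genes were lower and none higher. All 10 (90.9% of the arm) were without overlap of the libraries, beside 30.96% of all genes with every LPS+torin1 library lower. The exception was Acly at -0.04 ± 0.12. In the sterol arm 16 of 20 were lower and Hmgcs1 higher (0.42 ± 0.27, edgeR adjusted p = 0.236, and 0.408 without experiment 1). By pattern of calls in total mRNA, 12 sterol genes were called lower only in the 2 comparisons with LPS+torin1 cells. In the fatty acid arm 6 genes were called lower in all 3 comparisons and 3 only in the 2 with LPS+torin1 cells. These patterns were not counted over all genes, so whether such numbers are unusual cannot be read from them. With the experiment as a block Idi1, Cyp51, Sc5d, Sqle and Stard4 of those sterol genes were also called with LPS. Of those 6 fatty acid genes, Acss2, Fads2 and Scd1 lost their LPS call when 1 experiment was left out.

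Polysome-associated mRNA followed total mRNA in most calls. All 15 genes called with LPS in polysome-associated mRNA were called in total mRNA in the same direction (15 of 18 of the latter). With torin1 against LPS this held for all 22 (22 of 30), and against control for 29 of 33 (29 of 30). The rest of those 33, called in polysome-associated mRNA only, were the regulators Srebf1 (-0.65), Srebf2 (-0.44) and Scap, all lower, and Ggps1 (0.39), higher. Each of these calls was lost when 1 experiment was left out. No gene of the list was called for a change in translation efficiency, the change in polysome-associated mRNA beyond that in total mRNA, in any comparison, beside 0% of all genes in each (edgeR interaction of treatment and RNA type, adjusted p under 0.25 and 1.2-fold). At an unadjusted edgeR interaction p under 0.05 there were 44, 110 and 145 of all genes (LPS against control, LPS+torin1 against LPS and LPS+torin1 against control) and none of the 38. This is well under a share of 0.05 of all genes, the share expected with no changes. The test, which did not pair the 2 libraries of a lysate, was thus conservative, and finding no member carries little weight. With the lysate as a block 164, 303 and 820 genes were under it, and by partial variance 715, 698 and 1145. Of the 38 the latter held Elovl5 with LPS and Insig2 in LPS+torin1 against control. With the lysate as a block 0, 25 and 3 genes of the table were called, by DESeq2 1, 7 and 1 and by a partial variance method 10, 21 and 13, none of them on the list. Without experiment 2 the edgeR interaction called 430 genes of the table in LPS+torin1 against control, again none of the 38, and 0 in the other comparisons. The members' fitted changes in efficiency ran from -0.35 (Srebf1) to 0.22 (Insig2) with LPS and from -0.44 (Mvk) to 0.28 (Acss2) with torin1 against LPS, and from -0.60 (Srebf1) to 0.32 (Acss2) in LPS+torin1 against control. With the lysate as a block Srebf1 was at an unadjusted p under 0.05 in that last comparison (edgeR adjusted p = 0.659). The median SE was 0.29 in all 3 comparisons, and even the Srebf1 change of -0.60 was not called. With this replication and a conservative test the lack of calls does not show that polysome loading was unchanged.

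The genes did differ from each other in how much of their mRNA was on heavy polysomes. In control lysates the log2 ratio of polysome-associated to total CPM, taken relative to the median of all genes, was highest for Scap (1.41 ± 0.17, SD, n = 3 lysates), Mvk (1.21 ± 0.11) and Srebf2 (1.11 ± 0.29). It was lowest for Elovl5 (-1.03 ± 0.14), Elovl6 (-0.87 ± 0.24), Mbtps2 (-0.77 ± 0.24) and Cyp51 (-0.70 ± 0.13). The quartiles of all genes were -0.48 and 0.51, so those genes lay outside them on either side. Scap was above 99.0% of all genes and Elovl5 above 5.32%. Group medians were 0.47 ± 0.11 for the regulators, -0.11 ± 0.03 for the sterol arm and -0.27 ± 0.20 for the fatty acid arm. With treatment the positions of these genes moved within overlapping spreads: Scap was at 1.36 ± 0.40 with LPS and 1.14 ± 0.43 with LPS+torin1, Elovl5 at -1.03 ± 0.39 and -0.80 ± 0.18, and Mvk at 1.17 ± 0.45 and 0.69 ± 0.58. The 3 lysates of LPS+torin1 spread more than those of control for Scap, Mvk and Srebf2.

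**Figure D5:**
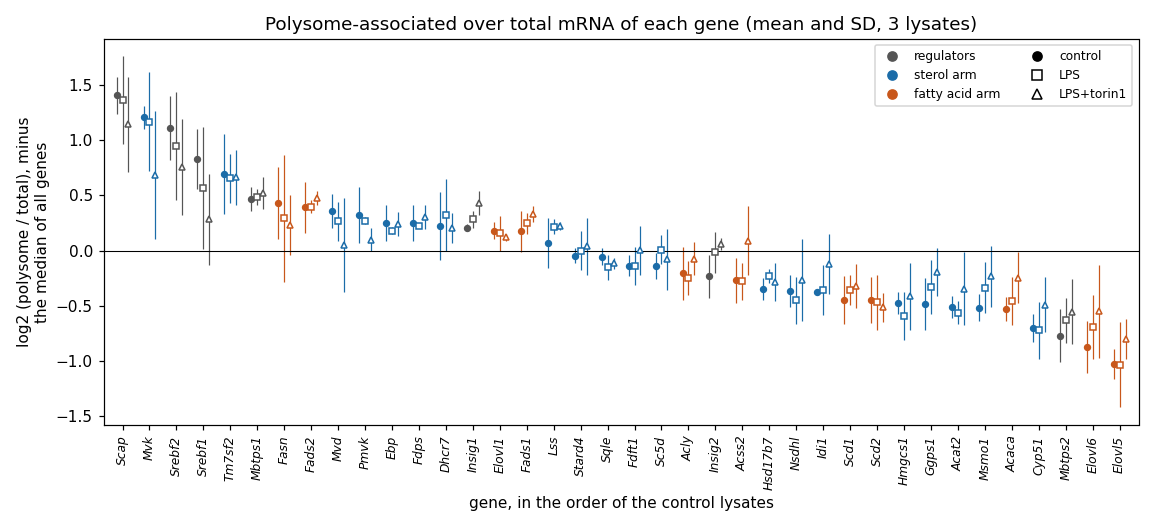
Log2 ratio of polysome-associated to total CPM minus the median of all genes (vertical axis) for each of the 38 genes, ordered by the control lysates, with filled circles for control, open squares for LPS, open triangles for LPS+torin1 and bars for the SD of 3 lysates. Scap, Mvk, Srebf2 and Srebf1 lead on the left and Elovl6 and Elovl5 close the order on the right, and the bars of the 3 treatments overlap for most genes, as for Scap at 1.41, 1.36 and 1.14.

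Other genes of the same metabolism, from lists chosen by function, were counted for comparison, beside 32.2% of all genes higher and 34.3% lower with LPS and 27.3% higher and 26.4% lower with torin1 against LPS in total mRNA (the liver X receptor list included). Of 26 further synthesis genes (polyisoprenoid and late sterol enzymes, remaining elongation and desaturation factors, acyl-CoA synthetases and electron donors), 8 rose and 3 fell with LPS and 4 rose and 14 fell with torin1 against LPS in total mRNA. The largest rise with LPS was that of Por, the reductase that supplies electrons to Cyp51 and squalene epoxidase (1.2996 ± 0.15, edgeR adjusted p = 6.99e-05), and the largest fall that of Acacb (-0.96 ± 0.56, edgeR adjusted p = 0.192). With torin1 they were Fads3 (0.91 ± 0.29, edgeR adjusted p = 0.0403) and Elovl3 (-1.90 ± 0.64, edgeR adjusted p = 0.0482). Acacb and Elovl3 rest on few counts: in total mRNA Acacb had 18 to 35 counts in control and 3 to 19 with LPS, and Elovl3 had 13 to 28 with LPS and 1 to 10 with LPS+torin1. Of 10 ER factors that sense sterols or degrade sterol enzymes, 5 rose and 1 fell with LPS, led by the ubiquitin ligase gene Rnf145 (0.61 ± 0.09, edgeR adjusted p = 0.000316) and by Erlin1 (-0.35 ± 0.13, edgeR adjusted p = 0.0457). With torin1 2 rose and 1 fell, led by Paqr3 (0.55 ± 0.15, edgeR adjusted p = 0.0233) and Rnf139 (-0.30 ± 0.10, edgeR adjusted p = 0.0372).

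Of 10 genes of the liver X receptor response, which acts when sterols accumulate, 3 rose and 6 fell with LPS in total mRNA, led by the cholesterol exporter gene Abca1 (2.69 ± 0.46, edgeR adjusted p = 0.000869) and by Cyp27a1 (-1.40 ± 0.17, edgeR adjusted p = 0.000113), the sterol hydroxylase that makes an oxysterol. With torin1 6 rose and 2 fell, led by the receptor partner gene Rxra (1.40 ± 0.15, edgeR adjusted p = 0.000251) and by Lpcat3 (-0.49 ± 0.09, edgeR adjusted p = 0.00400). The median log2 change of these 10 genes was -0.43 ± 0.09 with LPS and 0.65 ± 0.16 with torin1 against LPS (SD, n = 3 experiments), beside 0.07 and -0.62 for the sterol arm in the same experiments. The list mixes receptor and partner genes (Nr1h2, Nr1h3, Rxra and Rxrb) with genes of the response, so its median does not describe the latter alone. With torin1 against LPS 6 genes rose in all 3 experiments, among them those receptor and partner genes. In all 3 experiments 3 genes fell (Abca1, Mylip and Lpcat3).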

How the data were processed

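RNA was sequenced from 18 libraries (9 lysates, each as total and as heavy polysome-associated mRNA). The authors deposited whole-number read counts per gene, made with a nextflow pipeline (Hisat2 on GRCm38, featureCounts on Ensembl genes). Only protein-coding genes with reads in all libraries were retained, so the lowest count is 1, and 88 for a member. A gene silent in 1 treatment is therefore not in the table. Ribosomal RNA was depleted with a stranded kit. Whether counting used strand is not given in the sources used here.

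Counts were tested with edgeR 4.0.16 (quasi-likelihood, TMM scaling, R 4.3.3) over all 11243 genes, on the 9 libraries of each kind of mRNA and all 3 treatments, with Benjamini-Hochberg adjustment and the study's threshold of 0.25. Standard errors follow from the test statistic. Translation efficiency was the interaction over all 18 libraries. CPM were TMM-scaled within each kind of mRNA, and log2 ratios used a pseudocount of 0.5. Alternatives were an experiment block, DESeq2 1.42.0, RLE scaling, a minimum of 10 counts, a threshold of 0.05, a pseudocount of 5, the compared treatments alone, a partial variance method (limma 3.58.1) and leaving out each experiment. The script was tested on simulated data.

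Same-numbered libraries deviated together in total mRNA (correlations of at least 0.149, mean 0.336, over 9 pairs), so the experiment numbers were taken to pair them. Polysome-associated libraries came from the same lysates. Gene spans and exon overlaps are from GENCODE M21 on GRCm38, promoters from RefSeq on GRCm38.p6. Members and lists were chosen with earlier results of these data known. All members could be named, with full values for Srebf1, Srebf2, Insig1, Insig2 and the 3 largest changes per arm with LPS and with torin1. Mbtps1, Mvd, Hsd17b7, Fads1, Scd1, Acaca, Fasn, Acss2 and Acly were added after their values were seen. Other lists were named by their largest rise and fall. Of their symbols 6 (Scd3, Scd4, Elovl4, Elovl7, Ch25h and Marchf6, present as March6) were not in the table.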

Additional observations from a re-analysis of the deposited data

Results flagged for a closer look

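Insig1 was flagged because in 1 comparison its total and polysome-associated mRNA moved in opposite directions in every experiment. In LPS+torin1 against control cells its total mRNA was lower in all 3 experiments and its polysome-associated mRNA higher in all 3, and the polysome-associated log2 change exceeded the total one by 0.21 on average. Some of these differences were very small. Total mRNA in experiment 3 was at 59.6 CPM against 59.9 in control, and polysome-associated mRNA in experiment 2 at 128.6 against 126.2. In the other comparisons both kinds of mRNA moved the same way in every experiment. The edgeR interaction test did not call the difference (adjusted p = 0.998 over all genes, and 0.671 with the lysate as a block).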

How the results depend on the processing

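With RLE scaling, DESeq2, a minimum of 10 counts, a pseudocount of 5 or the compared treatments alone, the counts of genes called and both arm medians kept their direction, and the counts stayed within 1.5 times. At a threshold of 0.05 the genes called were 8 of 18 (LPS against control, total mRNA), 6 of 15 (polysome-associated mRNA), 10 of 22 (LPS+torin1 against LPS, polysome-associated) and 14 of 33 (LPS+torin1 against control, polysome-associated), since a stricter threshold admits fewer. Leaving out 1 experiment gave 8 (without experiment 1) to 24 (without 2) polysome-associated calls with LPS, 8 (without 3) to 26 (without 2) with torin1 against LPS and 19 (without 3) to 29 (without 2) in LPS+torin1 against control, and the cause was not tested. Among the genes given full values, changes that turned sign were uncalled ones: Srebf2 with LPS ran from -0.031 to 0.51 in total and from -0.32 to 0.29 in polysome-associated mRNA, Insig2 with LPS from -0.12 to 0.024, and Srebf1 in LPS+torin1 against control from -0.19 to 0.073 (total mRNA). With torin1 against LPS Dhcr7 ran from -0.11 to 0.16 and Elovl5 from -0.087 to 0.033. The sterol median with LPS in total mRNA ran from -0.02 to 0.18 and the fatty acid median from -0.57 to -0.33. With RLE scaling the torin1 call of Srebf1 was lost (edgeR adjusted p = 0.259) and Srebf2 was called (edgeR adjusted p = 0.234).

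With the experiment as a replicate block, 25 genes were called with LPS in total mRNA against 18, and 24 in polysome-associated mRNA against 15. The Dhcr7 change with torin1 was then 0.0090 (edgeR adjusted p = 0.959). In polysome-associated mRNA the lowest correlation of same-numbered libraries was -0.0919 (mean 0.291), and 7 of 9 libraries correlated best with their own number. With 3 experiments per group, depth limited no member (at least 88 counts), and replication set the precision.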
